A study of Mus musculus with 20 samples.

Results

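Cerebellar neuron genes were followed across the brain arrays of a mouse study of TDP-43, the RNA-binding protein encoded by Tardbp. The set was given by name and holds 10 genes of Purkinje and granule cells: Pcp2, Calb1, Cbln1, Cbln3, Zic1, Zic2, En2, Car8, Neurod1 and Itpr1. Every probe whose annotated symbol was one of these names was taken. That gave 9 probes of 8 genes, of 25697 probes and 16593 named genes on the array; Car8 and Itpr1 have no probe in the annotation used here. Of the 9 probes, 6 were above background on enough brain arrays to be tested (a detection p under 0.05 on at least 6 of 12), among 12423 probes tested in all. Those 6 measure Pcp2, Cbln1, Neurod1, Zic1, Zic2 and En2.

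The mutant mice carried a heterozygous human mutant TDP-43 transgene, and the controls are labelled "heterozygote wt". The labels do not say which promoter drives the transgene, which mutation or line it is, or which parts of the brain were taken. All mice were 17 weeks old and on a C57BL/6J background, and the study describes them as males. RNA of 6 mutant and 6 wild-type brains, and of 4 mutant and 4 wild-type muscles, was hybridised to Illumina bead arrays, each array with its own mouse.

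The cerebellar cortex is built around Purkinje cells, its output neurons, which are reached by the parallel fibres of the very numerous granule cells. Granule cells secrete cerebellin 1 (Cbln1), which joins neurexin on the parallel fibre to the glutamate receptor GluD2 on the Purkinje cell and holds that synapse together. Purkinje cells are known for calcium handling: calbindin (Calb1) buffers calcium, the IP3 receptor (Itpr1) releases it from stores and the carbonic anhydrase-related protein Car8 binds that receptor. Pcp2, also called L7, is a modulator of G protein signalling made in Purkinje cells and in bipolar cells of the retina, and its promoter is widely used to drive genes in Purkinje cells. Zic1 and Zic2 are zinc-finger transcription factors of granule cells and their precursors, En2 is a homeodomain factor that patterns the midbrain and cerebellum, and Neurod1 is a basic helix-loop-helix factor needed for granule cell survival.

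The brain arrays each detected 11736 to 12966 probes. In a principal component analysis of the brain levels, component 1 (45.4% of the variance) set 3 arrays apart: mutant 2 scored 32.7, wild type 4 41.05 and wild type 2 38.5, against -20.3 to 0.042 for the others. The Y-linked Eif2s3y was above background on 3 of 6 mutant and 3 of 6 wild-type brains, although the study describes male mice. Brain wild type 6 stood apart on the cerebellar genes themselves, and the genotype comparison of each member is given with and without it. Masp2, a complement protease, was the 1 probe called between genotypes over the whole table.

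The RefSeq promoter table of build GRCm38.p6 held windows for 4 of the 10 genes, from 250 bases before the gene start to 50 after it; those of Pcp2 and Zic1, both low on wild type 6, are shown because they differ in base composition. The Pcp2 window lies at chr8:3625498-3625797 on the minus strand (the most upstream of 4 starts in the table) and that of Zic1 at chr9:91365719-91366018, also on the minus strand. Capitals mark matches to 4 short motifs searched on both strands: AGGTCA, a nuclear receptor half-site of the kind that ROR factors bind, the E-boxes CAGATG and CAGCTG, and the homeodomain core TAATTA.
Pcp2: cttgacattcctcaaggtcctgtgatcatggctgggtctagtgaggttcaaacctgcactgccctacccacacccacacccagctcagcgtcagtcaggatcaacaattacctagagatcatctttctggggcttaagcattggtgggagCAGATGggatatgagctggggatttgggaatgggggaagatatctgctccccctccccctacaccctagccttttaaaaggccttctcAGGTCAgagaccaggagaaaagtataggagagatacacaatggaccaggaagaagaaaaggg
Zic1: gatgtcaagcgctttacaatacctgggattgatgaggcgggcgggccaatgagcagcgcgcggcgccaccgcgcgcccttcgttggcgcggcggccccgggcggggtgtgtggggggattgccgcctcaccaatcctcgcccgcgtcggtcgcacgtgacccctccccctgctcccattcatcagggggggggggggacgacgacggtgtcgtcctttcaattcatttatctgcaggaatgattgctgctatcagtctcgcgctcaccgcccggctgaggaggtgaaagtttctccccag
The Pcp2 window had 1 AGGTCA, from base -12 to -7 relative to the gene start, and 1 CAGATG, from -100 to -95. Its GC content was 51% with 1 CpG dinucleotide, near the median of 52.7% over all 32851 windows of that length. The Zic1 window had a GC content of 65.3% with 31 CpG dinucleotides and matched none of the 4 motifs, and the Neurod1 window, with 66.7% and 26, matched none either. Of all windows, 16.3% held AGGTCA, 17.2% CAGATG, 16.3% CAGCTG and 5.29% TAATTA. These are letter matches in a window and say nothing on whether a factor binds there, and no match says only that the letters are not in that window.

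Levels are given as log2 of the background-corrected, quantile-normalized signal with an offset of 16 added; they compare arrays for 1 probe, not probes with each other. Because whole tissue was measured, fewer cells of a type and less RNA per cell cannot be told apart.

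Pcp2, the Purkinje cell gene, was above background on every brain but wild type 6. Its level was 9.15 at the lowest, 9.40 at the median and 10.41 at the highest in the 6 mutant brains, against 4.50, 9.34 and 10.23 in the 6 wild-type brains. All brains but wild type 6 lay between 9.11 and 10.41, and the genotypes overlapped. On wild type 6 the raw signal was 105, with a detection p of 0.0940 and so not above background, against 457 to 2134 on the other 11 brains. Taking the lowest level of any detected probe on that array as a bound, Pcp2 was at least 27.5-fold lower on wild type 6 than the median of the other 11.

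Cbln1, the granule cell synapse organiser, was above background on all 12 brains. It read 10.69, 10.92 and 11.45 (lowest, median, highest) in mutant brains and 8.87, 10.90 and 11.59 in wild-type brains. The lowest value was again wild type 6, which differed by -2.08 from the median of the other 11, a 4.23-fold lower level. Among the other 11 the highest were mutant 2 (11.45), wild type 4 (11.59) and wild type 1 (11.26), and those same 3 brains were the highest for Pcp2.

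En2, the regional patterning factor, read 8.34, 8.56 and 8.90 in mutant brains and 5.92, 8.50 and 9.17 in wild-type brains. Wild type 6 differed by -2.68 from the median of the other 11, a 6.40-fold lower level, and those 11 lay between 8.33 and 9.17. Its raw En2 signal of 130 compares with 314 to 1114 on the other brains.

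Zic1 ran from 8.0 through a median of 8.18 to 8.59 in mutant brains, and from 7.13 through 8.49 to 8.83 in wild-type brains. Wild type 6 was lowest, differing by -1.19 from the median of the other 11 (2.28-fold lower). Those 11 brains lay between 8.0 and 8.83.

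Neurod1 and Zic2 were near background in these brains. Neurod1 read 4.77, 4.86 and 6.04 in mutant brains and 4.37, 5.11 and 5.58 in wild-type brains, and was above background on 11 of 12, wild type 6 being the exception. Against the detection bound it was at least 1.24-fold lower there than the median of the others. Zic2 read 4.27, 4.92 and 5.10 in mutant brains and 4.21, 4.32 and 5.55 in wild-type brains, and was above background on only 4 mutant and 2 wild-type brains. It was the 1 tested probe for which wild type 6 was not the lowest brain: wild type 4 and wild type 2 lay below it, all 3 below background. Calb1 and both Cbln3 probes were above background on 0 of 12 brains and 0 of 8 muscles, so these probes give no measure of the Purkinje calcium buffer or of the cerebellin partner of Cbln1.

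**Figure D1:**
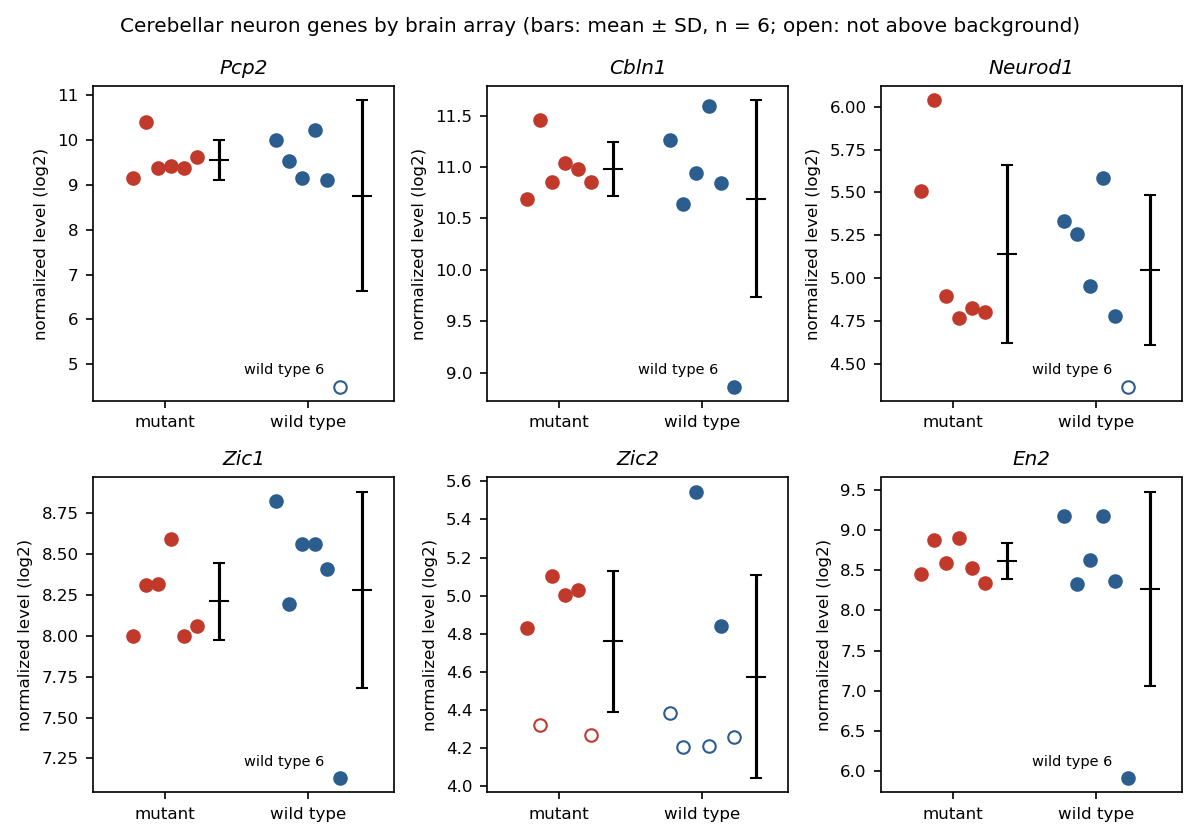
Level (log2) of the 6 tested probes of the cerebellar neuron genes on each of 12 brain arrays, mutants left and wild types right; points are mice (open where not above background), bars are the mean and SD of 6 mice, and each panel has its own axis. Wild type 6 is the lowest point for Pcp2, Cbln1, Neurod1, Zic1 and En2, while the remaining mice of both genotypes overlap.

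On wild type 6, 5 of the 6 member probes were below all 11 other brains, where 9.3% of all tested probes were, and 4 were more than 1 log2 unit below the median of the others, where 0.378% of all probes were. Pcp2, not above background there and so measured only as a bound, had the lowest difference of all 12423 probes. En2 (-2.68), Cbln1 (-2.08) and Zic1 (-1.19), all above background there, ranked 4, 7 and 28 from the lowest of all probes. Neurod1 and Zic2 were not above background on that array and are given no rank. The median difference of the 6 members was -1.64, also with the 3 dim ones at their bounds. On every other brain array 0 members were more than 1 log2 unit below the median of the rest. Members lay that far above it on mutant 2 (Pcp2 by 1.03 and Neurod1 by 1.15) and on wild type 3 (Zic2 by 1.16). These are descriptions of 1 array; a single array gives no test.

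The arrays that stood apart on the first principal component were not the one that stood apart on these genes. Wild type 6 scored -20.3 there, the lowest of 12 but next to mutant 1 at -17.5, and its median difference over all probes was -0.0057. It had 47 probes more than 1 log2 unit low, within the range of 4 to 480 over all brain arrays, and 16 that far high (0.129%).

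Cerebellar genes outside the set were read on the same array. Over 3 lists of further Purkinje, granule and other cerebellar genes, 35 of 57 genes were tested, and 21 of the 35 were below all 11 other brains on wild type 6, 1 above all of them. The median difference from the other brains was -0.61, and 5 genes were more than 1 log2 unit low. With the 8 genes not above background on that array at their bounds, the median was -0.47 and 4 genes were that low. The counts below all other brains, here and by list, take dim genes at their measured levels. For Casq2, Barhl1, Uncx and Tfap2a of the cerebellar lists, the bound of 4.64 lies above the lowest other brain. Over 6 lists of other brain regions, 0 of 50 tested genes were below all other brains and 2 were above, with a median difference of 0.18 (7.78% of all probes were above all others). Over 6 lists of general neuronal, glial, vascular and choroid plexus genes, 3 of 54 were below and 8 above, with a median of 0.14.

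Among further Purkinje cell genes, 8 of 15 were below all other brains on wild type 6 and 2 were more than 1 log2 unit low when dim probes were taken at their bounds. Atp2a3, a calcium pump of the endoplasmic reticulum, read 7.01 there, against 8.49 to 9.65 on the other 11. Rgs8, a regulator of G protein signalling, read 8.48, against 9.45 to 10.59. The differences were -1.95 for Atp2a3, -1.47 for Rgs8, -0.84 for the G protein subunit Gng13, -0.83 for the calcium buffer Pvalb and -0.83 for Doc2b, a calcium sensor of vesicle release. The LIM homeodomain factor Lhx1, not above background there, was at least 1.79-fold lower than the median of the others, though another brain read lower still. Pvalb is also made by interneurons across the brain, and another Atp2a3 probe differed by -1.86. Purkinje cell genes did not all read low: the glycolytic enzyme Aldoc was at -0.08 and the transcription factor Foxp2, near background, at 0.08.

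Among further granule cell genes, 10 of 15 were below all other brains on wild type 6. Chn2, a GTPase-activating protein for Rac, read 8.38 there, against 9.60 to 11.09 on the others. The differences were -1.71 for Chn2, -0.97 for Zic4, which neighbours Zic1 in the genome, -0.97 for the calcium buffer Calb2, -0.66 for the extracellular guidance protein Reln and -0.61 for the vesicular glutamate transporter Slc17a7. The homeodomain factor Uncx, not above background there, was at least 1.39-fold lower, and the potassium channel Kcnd2 was at 0.21. Of 5 other cerebellar genes, 3 were below all others and 1 above: Gdf10, a growth factor of Bergmann glia, was at -1.81, Tfap2b, a transcription factor of inhibitory neuron precursors, at -0.88, the sorting receptor Sorcs3 at -0.07 and Lgi2 at 0.37. The related Tfap2a, not above background there, was at least 1.34-fold lower.

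Genes of the parallel fibre synapse and Purkinje calcium release, most of which are used by neurons throughout the brain, had a median difference of -0.08 on wild type 6, with 4 of 18 below all others. The largest differences were those of the calcium release channel Ryr1 (-0.95) and the calcium channel subunit Cacna1a (-0.58) among probes above background there. The phospholipase Plcb4 and the GluD2 partner Grid2ip, not above it, were at least 1.6-fold and 1.44-fold lower than the median of the others. Plcb4 read lower still on another brain. Relatives of the members divided: of 9 tested, 4 were below all others (Zic4, Calb2, Pvalb and Neurod2, at -0.46) and 3 above (Cbln4 at 0.18, Itpr2 at 0.21 and Car11 at 0.13, the last named after its value was seen). Cbln2, at 0.34, lay within the range of the others, and Itpr3, not above background there, was at least 1.28-fold lower than their median. All 4 relatives below the other brains also belong to the Purkinje or granule lists.

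Lists of other regions on wild type 6 had median differences of 0.13 for cortex and hippocampus, 0.19 for striatum, 0.24 for hypothalamus and pituitary, 0.35 for olfactory bulb, -0.05 for thalamus and 0.78 for midbrain, pons and medulla. In the last list the largest differences were those of the Hox genes of hindbrain and spinal cord Hoxa5 (1.59) and Hoxb5 (1.46), the serotonin synthesis enzyme Tph2 (1.32), the acetylcholine synthesis enzyme Chat (0.78) and Sncg (0.78), a synuclein of motor and sensory neurons. Of these probes, that of Hoxa5 was above all other brains, as was another, dimmer Sncg probe (1.26). In the same list Slc6a3 was at -0.10. Gata3, not above background there, was at least 1.13-fold lower than the median of the others, though another brain read lower still. Choroid plexus genes were at -0.42, with the transcription factor Otx2 at -1.07. General neuronal genes were at 0.03, astrocyte genes at 0.14, oligodendrocyte genes at 0.22, microglial genes at 0.21 and endothelial and blood genes at 0.18. What part the mix of tissue in that sample has in these values was not tested.

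**Figure D2:**
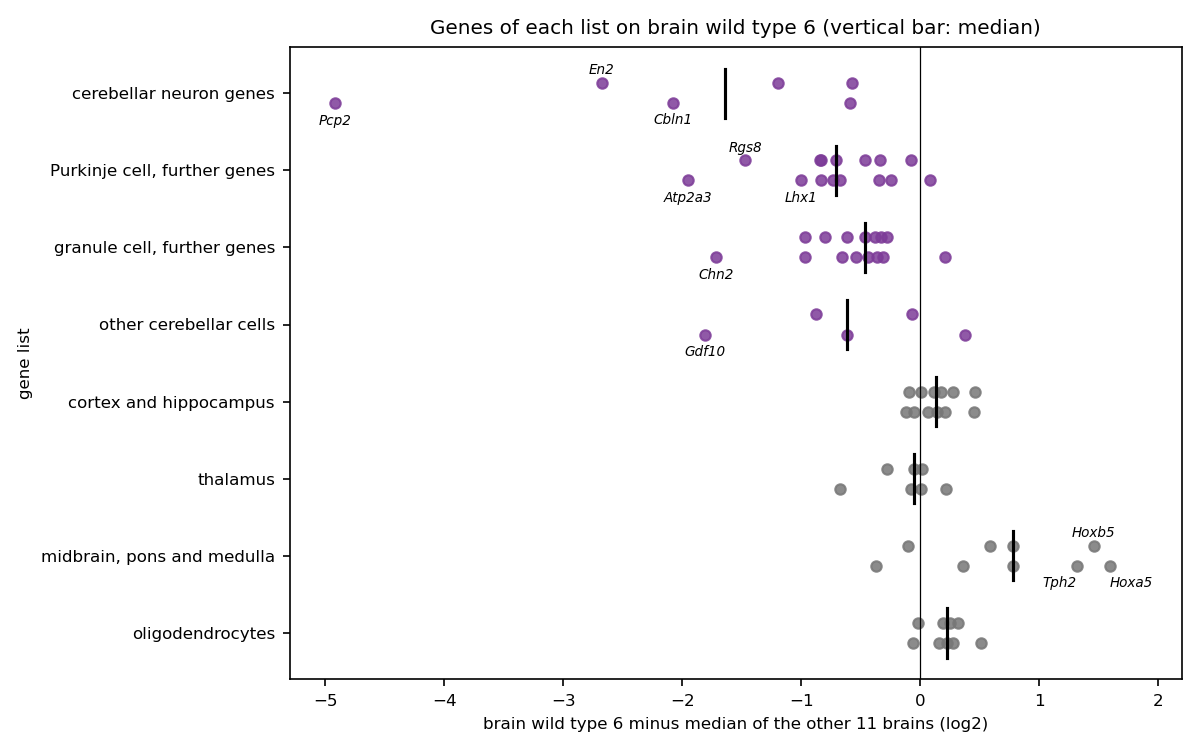
Difference of brain wild type 6 from the median of the other 11 brains (log2), for the tested genes of 8 lists; each point is a gene and vertical bars are list medians. The members and the further Purkinje, granule and other cerebellar genes lie mostly below 0, Pcp2 furthest, at a level not above background, and midbrain, pons and medulla genes lie mostly above it.

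Other arrays differed in regional lists in their own ways. Their median difference for the cerebellar members ran from -0.20 (mutant 6) to 0.67 (wild type 4), against -1.64 on wild type 6. The mean level of the 6 member probes was 5.84 on wild type 6, against 7.66 to 8.23 on the other 11. The hypothalamus and pituitary list had a median difference of -0.87 on mutant 2, -1.82 on wild type 1 and -1.51 on wild type 4, and those 3 brains were at 0.48, 0.48 and 0.67 for the cerebellar members, the highest 3 of 12. The striatum list was at -0.99 on mutant 2, -1.20 on wild type 4 and -0.53 on wild type 1. Wild type 1 also had the olfactory bulb list at 1.37 and the midbrain, pons and medulla list at -1.40. The midbrain, pons and medulla list was at 0.70 on wild type 2 and 0.66 on mutant 4, against 0.78 on wild type 6.

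**Figure D3:**
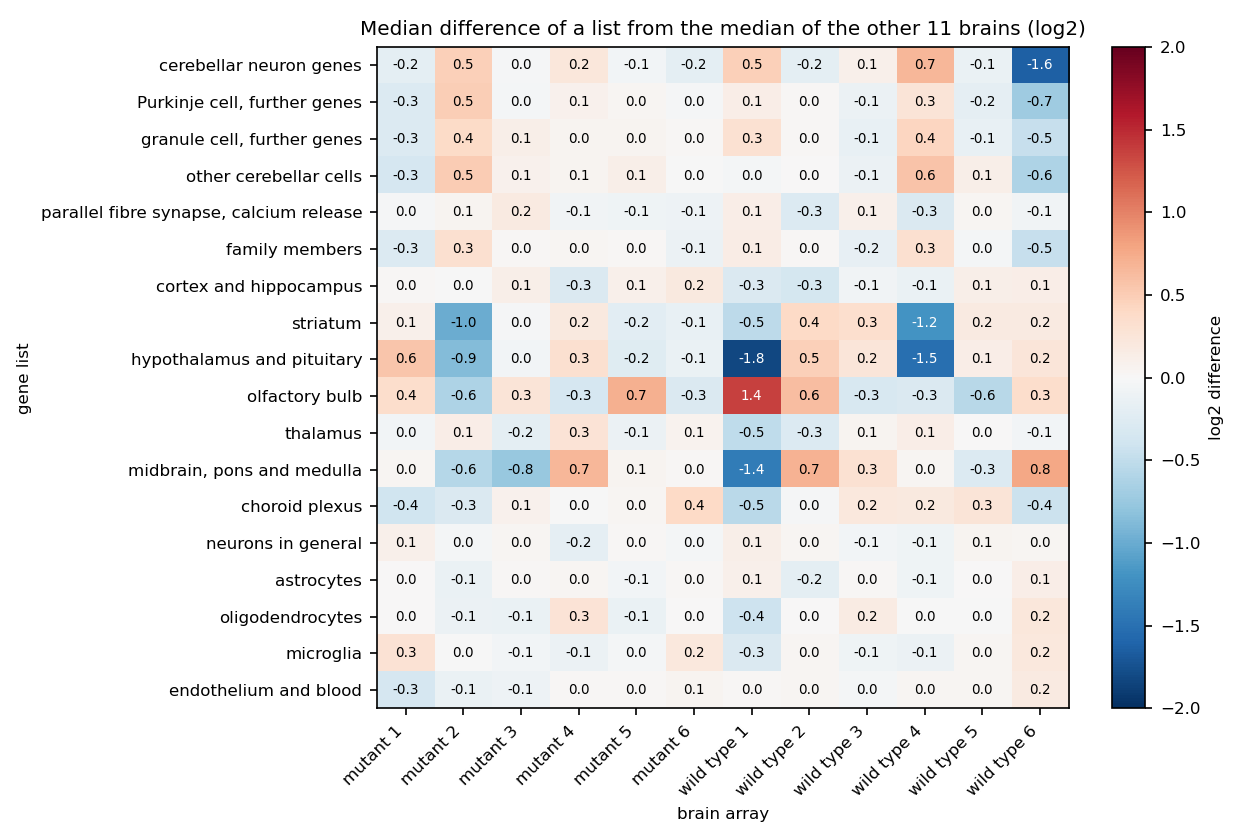
Median difference (log2) of each gene list on each brain array from the median of the other 11 arrays, mutants left and wild types right, blue for lower and red for higher. Wild type 6 is the lowest column for the members (-1.64) and for the further Purkinje, granule and other cerebellar lists. For the parallel fibre synapse and calcium release list the lowest is wild type 4 (-0.28), with wild type 6 at -0.08. Mutant 2, wild type 1 and wild type 4 are low for the hypothalamus and striatum lists.

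Between genotypes, 0 of the 6 member probes passed limma with Benjamini-Hochberg adjustment over all probes, and 0 had an unadjusted p under 0.05. Of all 12423 probes, 1 passed (0.00805%) and 7% had an unadjusted p under 0.05. The probe that passed was that of Masp2, higher in mutants by 1.18 (SE 0.12, limma adjusted p = 0.000932). The median difference, mutant minus wild type, was 0.24 over the members and 0.0026 over all probes, and 5 of 6 members had the higher mean in mutants. Without wild type 6 the members' median was -0.06, that of all probes was -0.0022, and 1 of 6 had the higher mean in mutants. Again 0 members passed, and 1 of 12308 probes did (0.00812%), Masp2.

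Pcp2 averaged 9.56 ± 0.44 in mutant and 8.76 ± 2.13 in wild-type brains (SD, n = 6 each), a difference of 0.80 with a 95% interval of -0.81 to 2.42 (limma adjusted p = 0.867). Leaving out wild type 6 brought the wild-type mean to 9.61 ± 0.50 (n = 5) and the difference to -0.05, with an interval of -0.58 to 0.49 (limma adjusted p = 0.974). The standard error with all 12 arrays was 3.06 times that with 11.

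Cbln1 averaged 10.98 ± 0.26 in mutant and 10.69 ± 0.96 in wild-type brains, a difference of 0.29 (SE 0.35, limma adjusted p = 0.893). Without wild type 6 the wild-type mean was 11.06 ± 0.37 and the difference -0.08, with an interval of -0.46 to 0.30 (adjusted p = 0.931). En2 averaged 8.61 ± 0.23 in mutant and 8.26 ± 1.21 in wild-type brains, a difference of 0.35 (SE 0.43, adjusted p = 0.894), and without wild type 6 the wild-type mean was 8.73 ± 0.42 and the difference -0.12 (interval -0.51 to 0.27, adjusted p = 0.893). For these 3 genes the sign of the difference rested on that 1 array.

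Zic1 averaged 8.21 ± 0.24 in mutant and 8.28 ± 0.60 in wild-type brains, a difference of -0.07 (SE 0.23, limma adjusted p = 0.968). Without wild type 6 the wild-type mean was 8.51 ± 0.23 and the difference -0.30, with an interval of -0.60 to 0.0013 (SE 0.14, unadjusted p = 0.0508, limma adjusted p = 0.645). Neurod1 averaged 5.14 ± 0.52 in mutant and 5.04 ± 0.44 in wild-type brains (difference 0.09, adjusted p = 0.959), and -0.04 without wild type 6 (adjusted p = 0.975). Zic2 averaged 4.76 ± 0.37 in mutant and 4.57 ± 0.53 in wild-type brains (difference 0.19, adjusted p = 0.897), and 0.13 without wild type 6 (adjusted p = 0.924). The intervals leave room for differences of the size of their bounds, so a p above the threshold does not show that the genotypes were alike.

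**Figure D4:**
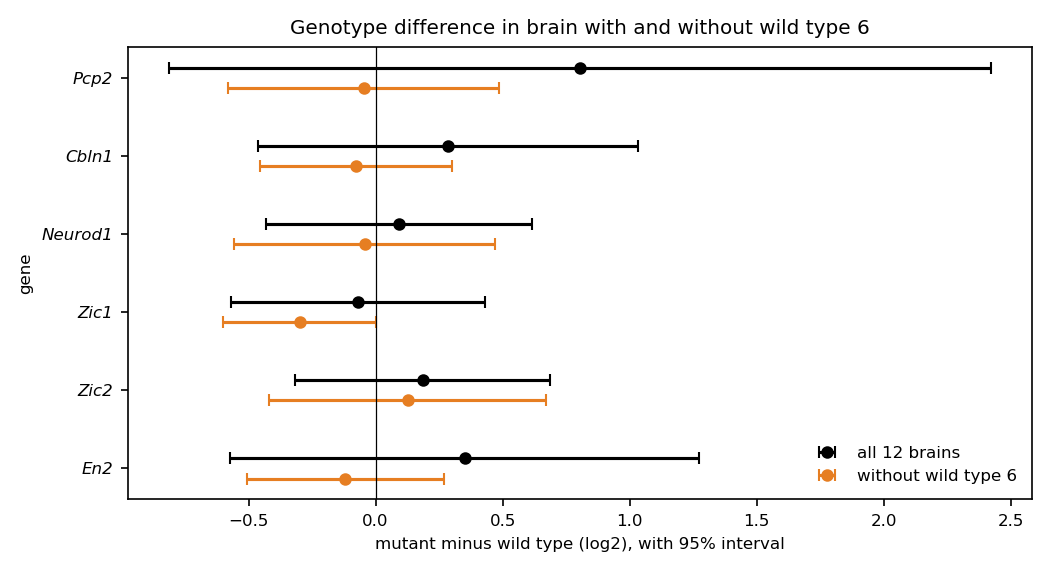
Difference between mutant and wild-type brains (log2, mutant minus wild type) for the 6 tested probes, with 95% intervals, over all 12 arrays and without wild type 6. The interval of Pcp2 runs from -0.81 to 2.42 with all arrays and from -0.58 to 0.49 without wild type 6, and all intervals include 0.

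The comparison was also read within the arrays split by the Y-linked Eif2s3y, a choice made after the data were seen. Where Eif2s3y was above background (3 mutants, 3 wild types), the mutant minus wild-type difference of means was -0.20 for Pcp2, -0.07 for Cbln1, -0.23 for En2, -0.32 for Zic1, -0.14 for Neurod1 and 0.55 for Zic2. Where it was not, the differences in the same order were 1.81, 0.64, 0.93, 0.18, 0.33 and -0.18 with wild type 6, and 0.27, -0.04, 0.07, -0.27, 0.16 and -0.49 without it. Zic1 and Cbln1 had the lower mean in mutants in both classes once wild type 6 was left out, and the other 4 changed sign between them. Mutant 2, wild type 2 and wild type 4, the 3 brains apart on component 1, all had Eif2s3y above background. The split therefore cannot be fully told apart from that component. Without wild type 6 the class without Eif2s3y held only 5 brains. No test was run within classes this small, and the signs are a description only.

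In the further cerebellar lists 0 of 35 tested genes passed between genotypes (2 with an unadjusted p under 0.05), with a median difference of 0.11, and -0.03 without wild type 6. By list, 0 of 15 Purkinje genes, 0 of 15 granule genes, 0 of 5 other cerebellar genes, 0 of 18 synapse and calcium genes and 0 of 9 relatives passed in either direction, with or without wild type 6. The lowest p belonged to Lhx1, which read 5.38, 6.02 and 6.28 (lowest, median, highest) in mutant and 4.36, 5.06 and 5.48 in wild-type brains. Its groups overlapped only slightly: the mutant range began at 5.38 and the wild-type range ended at 5.48. It was above background on all 6 mutant but only 4 of 6 wild-type brains, so the low end of the wild-type range lies near background. Its difference was 0.93 (SE 0.22, limma adjusted p = 0.421), and 0.85 without wild type 6 (adjusted p = 0.462). The GABA receptor subunit Gabrd of granule cells was at 0.29 (adjusted p = 0.665) and 0.21 without wild type 6, Ahcyl1, an inhibitor of the IP3 receptor, at 0.27 (0.685) and 0.30 without it, and Cbln2 at -0.39 (0.621) and -0.38 without it.

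The members' levels were related to each other over the 11 brains other than wild type 6, in 15 pairs with permutation tests of 1e+05 resamples. Cbln1 and En2 varied together, with Pearson's r of 0.872 (adjusted permutation p = 0.0112) and Spearman's rho of 0.875 (adjusted permutation p = 0.0102). Their r was 0.878 without the 2 brains farthest from the median of Cbln1 (mutant 2 and wild type 4) and 0.871 without the 3 brains apart on the first component (n = 8). No other of the 15 pairs passed by both measures.

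By Pearson's r alone 5 further pairs passed. Pcp2 and Cbln1 had r of 0.843 (adjusted permutation p = 0.0183), but rho of 0.638 (adjusted permutation p = 0.149) and r of 0.559 without the 2 brains farthest from the median of Pcp2 (mutant 2 and wild type 4). Without the 3 brains apart on component 1, which include both, it was 0.754 (n = 8). Zic1 and En2 had r of 0.754 (adjusted permutation p = 0.0388) and rho of 0.736 (adjusted permutation p = 0.0907), with 0.668 without the 2 farthest and 0.802 without the 3 apart. Pcp2 and En2 had r of 0.695 (adjusted permutation p = 0.0473), with rho of 0.418, 0.566 without the 2 farthest and 0.665 without the 3 apart. Pcp2 and Neurod1 had 0.725, with rho of 0.518 0.226 without the 2 farthest and 0.190 without the 3 apart. Pcp2 and Zic2 had -0.720, with rho of -0.691, but Zic2 was below background on 5 of these 11 brains. The arrays share tissue composition and normalization, so each r describes these mice together.

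**Figure D5:**
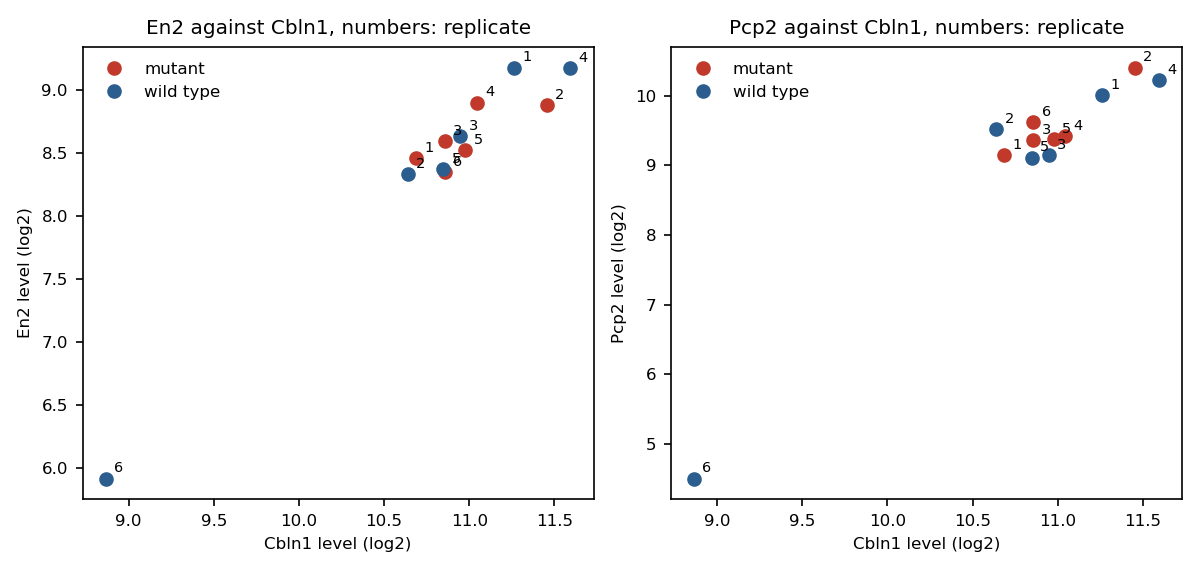
Levels (log2) of En2 against Cbln1 and of Pcp2 against Cbln1 on 12 brain arrays, numbered by replicate, mutants in red and wild types in blue. Over the 11 brains other than wild type 6 the r values are 0.872 and 0.843; wild type 6 lies far below the rest in both panels and was left out of them.

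Genes outside the set were ranked by Pearson's r with the members' mean level, as a description. Over 12 arrays the nearest were Atp2a3 (0.950), the stress kinase Mapk12 (0.943), the cytokine receptor subunit Il20rb (0.933), the synaptotagmin Syt12 (0.922), the Wnt ligand Wnt7a (0.907), Pvalb (0.903), the cytokine Il16 (0.902) and Tmem266 (0.892), then Smarcd2, Col18a1, Chn2 and Nrep (0.879). Over the 11 brains without wild type 6 the r of these 12 genes ran from 0.701 to 0.884. The nearest over 11 arrays were the repressor Bcl6 (0.916), the galactosyltransferase B4galt1 (0.916) and Atp2a3 (0.910), then Syf2, Vim, Dnase1l2, Sphkap, Syt12, Crtam, Barhl1, Syne4 and Nrep (0.874). Both sets of 12 held Atp2a3, Nrep and Syt12, and no others were shared. Of the 12-array set, Atp2a3, Pvalb and Chn2 belong to the further cerebellar lists, and of the 11-array set Atp2a3 and Barhl1, a homeodomain factor of granule cell precursors.

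Among genes outside the lists, Il20rb was at least 5.93-fold and Il16 at least 4.11-fold lower on wild type 6 than the median of the other brains, both not above background there. Il20rb read 4.35 on wild type 6 against 6.64 to 8.45 on the others, and as a dim probe there it is given no rank. Timmdc1 was at -2.21, though another brain was lower still, and Dao, the D-amino acid oxidase of Bergmann glia and other hindbrain astrocytes, was at -1.73. At the other end, Rgs5, a pericyte gene, was 2.13 high.

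The member probes were also read in muscle, a tissue without these neurons. Pcp2 was above background on 1 of 4 mutant and 1 of 4 wild-type muscles, Cbln1 on 3 mutant and 1 wild-type, Zic1 on 3 of each, and En2 on all 4 of each; the other member probes were above it on 0 of 8. Over the 8 muscles the raw signals were 105 to 142 for En2, 100 to 130 for Zic1 and 98.1 to 110 for Cbln1. The En2 signal of 130 on brain wild type 6 lay within that muscle range, while its Cbln1 signal of 386 and Zic1 signal of 178 lay above it. Signals were not normalized between the tissues, so no fold is given.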

How the data were processed

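Raw signals came as a deposited intensity table of 25697 probes, with no normalization or background subtraction. Each signal has a deposited detection p-value. The authors' own processed intensity values were used as an alternative. Trizol and RNeasy columns were used for the RNA, per the labels' protocols, and MessageAmp for biotinylated cRNA. The submitters' processing notes name GenomeStudio 2011.1. In the platform annotation 23978 probes have 1 symbol, 0 have several and 1719 are unnamed; matching to RefSeq changed 0 symbols.

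Brain signals were corrected by normexp using negative controls that limma inferred from detection p-values, then quantile-normalized with 16 added and put on the log2 scale (limma 3.58.1, R 4.3.3). Genotypes were compared by limma (lmFit, eBayes) over all 12423 tested probes with Benjamini-Hochberg adjustment at 0.05; p-values measure the spread between mice, and precision is limited by the number of arrays. The offset shrinks differences of dim probes. Each listed gene is represented by its brightest tested probe. A fold written as "at least" sets the median of the other brains against the lowest level among detected probes on that array. The limma fit was checked on simulated data with independent noise for each probe and array. Such data lack the array differences that many probes share. The members, gene lists and rules were chosen with earlier results of these data known. Named were all members, per list up to 6 genes furthest from the other brains on wild type 6 and up to 4 of lowest genotype p, the 12 genes most like the members over 12 and over 11 arrays, and called genes; list genes are given in part, and Il20rb, Il16, Timmdc1, Dao and Rgs5 were named after their values were seen. The muscle arrays serve only for detection. Replicate numbers were not used as pairs, since each array had its own mouse. Of 6 same-numbered pairs, 4 had deviations correlated over 0.1 (range -0.070 to 0.621), and whether same-numbered arrays share a batch was not tested.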

Additional observations from a re-analysis of the deposited data

Results flagged for a closer look

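In the wild-type brains, the gap of wild type 6 to the nearest other wild-type brain, as a share of the group's range, was 0.805 for Pcp2, 0.740 for En2, 0.651 for Cbln1 and 0.628 for Zic1, and 0.777 for the mean level of the 6 member probes. All exceed Dixon's critical value for 6 samples, and in each the array lay below the rest. Outside the cerebellar genes, the mean level of the striatum list was low on mutant 2 (share 0.710, level 6.83) and that of the oligodendrocyte list low on wild type 1 (share 0.629, level 9.48). Members and lists gave 48 groups to check, 12 of them members, and chance marks about 5% of groups; the members share their arrays, so their marks are not separate events.

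In muscle, which the genotype comparison does not use, Cbln1 was above background on 4, Zic1 on 6 and En2 on 8 of 8 arrays. Whether these signals come from the genes' own RNA was not tested.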

How the results depend on the processing

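With 0 of 6 members called, none of 22 alternatives called any, and 0 members had an unadjusted p under 0.05 in any of them. Over all probes the count of 1 became 2 without background correction, with the authors' values, with an offset of 50, with detection on every brain array, and without the 3 arrays apart on the first component, 5 with array weights, and stayed 1 leaving out any single array. With the replicate number as a block, limma called 0 probes, so Masp2 was not called, with 1201 unadjusted p-values under 0.05. The own number was the best match in 0 of 6 pairs, which does not show that the numbers are unrelated. The members' median difference ranged from -0.063 to 0.34. Leaving out single arrays, the difference ranged from -0.047 to 1.08 for Pcp2, -0.079 to 0.47 for Cbln1, -0.12 to 0.53 for En2, -0.086 to 0.19 for Neurod1, -0.30 to 0.041 for Zic1 and 0.11 to 0.29 for Zic2. The negative ends of Pcp2, Cbln1 and En2 came without wild type 6, where Neurod1 was at -0.043; Neurod1 was at -0.086 without mutant 2 and at -0.084 with median scaling, and Zic1 at 0.041 without wild type 1. The adjusted p stayed at 0.573 or more for all of them. The cause of each change was not tested.

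The mean difference of the members on wild type 6 was -2.0, and -1.87 with dim probes at their bounds, -1.19 without background correction and -1.56 with an offset of 50, settings that compress dim values. Leaving out single other arrays it ranged from -2.35 to -1.96, the lower values where Zic2 no longer met the detection filter. Pcp2 on that array was at -2.64 without background correction, -3.67 with an offset of 50, and -4.26 with the authors' values. The median r of the 12 genes most like the members was 0.902 over 12 arrays and 0.787 without wild type 6. Detection on every array leaves Pcp2, Neurod1 and Zic2 untested. The split by Eif2s3y, the fit without 3 arrays and the use of bounds in list medians were chosen after seeing the data. Wild type 6 was set apart because it read low on these same genes. The smaller standard errors of Pcp2, Cbln1, En2 and Zic1 without it follow in part from that choice. Depth here is signal over background, which limits Zic2 and Neurod1 most.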
